A study of Drosophila melanogaster
Schmidtea mediterranea with 2 samples.

Results

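Among the H3K4me3 peaks of planarian stem cells, 2048 of 14553 were over 300 bp and under 2000 bp wide and had their nearest peak on the same scaffold more than 1000 bp and up to 10000 bp away, edge to edge. They made up 14.1% of the list (95% Wilson interval 13.5% to 14.6%), lay on 254 of 449 scaffolds and covered 1.97 Mb, or 14.1% of all marked bases. The width and the distance to the nearest peak chose these closely spaced peaks, so both are given as a description and no test was run on them. The chromatin was a pool of 800 K X1 cells, the dividing stem cells sorted by FACS from untreated asexual *Schmidtea mediterranea*, and 9.8 M *Drosophila* S2 cells by the design text, while the paper's methods give a lower number of S2 cells. There was 1 library precipitated with an H3K4me3 antibody and 1 library of input chromatin, both from mononucleosomes cut with micrococcal nuclease (Mnase). The experiment therefore has no replicate error, and the intervals below cover counting error only. The list names neither library and gives positions without a score or read numbers, so the depth behind each peak is unknown.

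H3K4me3 is placed on nucleosomes around the transcription start sites of active genes by the Set1 and MLL families of methyltransferases, and a peak of the mark is commonly read as an active promoter. Neighbouring marked promoters can belong to adjacent genes, to genes that diverge from a common intergenic stretch, or to alternative starts of a single gene. In planarian stem cells Set1 is known for wide peaks and MLL1/2 for narrower ones. Gene models of the planarian genome were not used here, so whether each peak lies at a promoter, and of which gene, was not tested, and peaks are named by scaffold and position on the Rink lab v4 assembly (dd_Smes_g4).

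The first question was how the closely spaced peaks are arranged. Most of them stood as couples and not as longer stretches, a split that the definition largely sets. When consecutive peaks of this kind with at most 10000 bp between them were joined into runs, 685 runs held 2 peaks, 51 held 3, 4 held 4 and 1 held 5, while 504 peaks stood alone in their run because the nearest peak was of another kind. Runs of 3 or more thus took in 174 peaks, or 8.50% (7.36% to 9.78%), and couples 66.9%. The definition asks for a neighbour within 10000 bp, while the median between all neighbouring peaks of the list was 34962 bp. The share of couples is therefore a description only and was not compared with a share over all peaks. A name such as densely marked stretches would therefore not describe most of the closely spaced peaks. The 56 longer runs count only peaks of this kind, and a peak of another kind ends a run. Stretches of 3 or more listed peaks of any kind are thus undercounted.

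The definition sets the nearer side of each peak, and the other side is by construction the longer, so the distances on both sides are given as a description only. On the nearer side the median distance was 5380 bp (95% interval from the order statistics 5146 to 5583 bp), and the middle 50% lay between 3039 and 7693 bp. On the other side it was 43361 bp (40755 to 45791 bp) for the 1989 peaks that had a neighbour on both sides. The median between all neighbouring peaks of the list was 34962 bp. The longer distance was 8.92 times the shorter one at the median peak. The other side was over 50 kb away for 867 of these 1989 peaks (43.6%), and both flanking peaks were within range for only 126 of the 2048 (6.15%). Of the 718 pairs of these peaks that were each other's nearest peak, 635 had no other peak of any width within 10 kb (88.4%, 85.9% to 90.6%).

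Within 1 to 10 kb the distances were spread almost evenly. The number of peaks per 1 kb of distance was highest between 1 and 2 kb, with 259 peaks, and fell to between 208 and 227 in each of the bins beyond 3 kb. Peaks of the same widths whose nearest peak lay 10 to 20 kb away numbered 171 to 232 per 1 kb, with a median of 201.5 against 225 in the range described. The upper limit of 10 kb therefore cuts a nearly level distribution and does not follow a gap in it. Below the lower limit the number was far higher, with 2212 peaks of these widths that had a neighbour within 1000 bp.

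**Figure D1:**
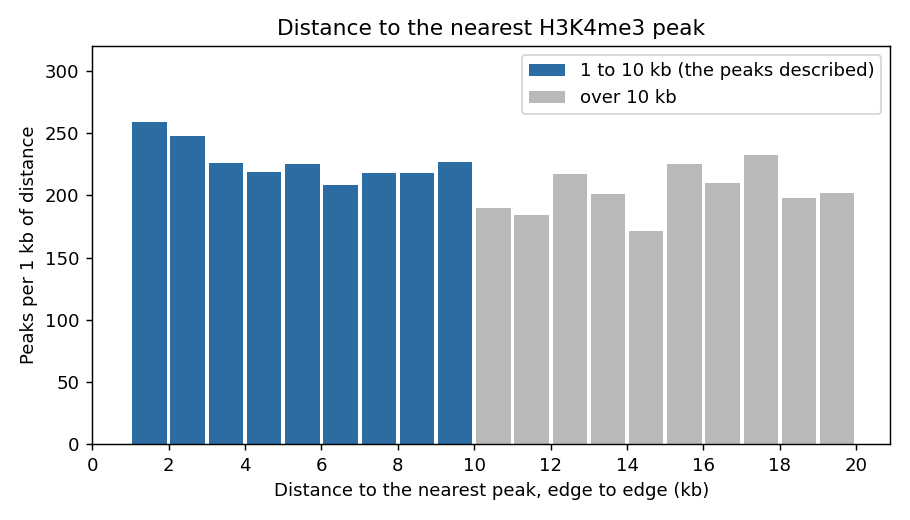
Number of peaks over 300 and under 2000 bp wide (y axis) per 1 kb of distance to the nearest peak (x axis, kb, edge to edge); blue bars are the peaks described, grey bars peaks farther from their neighbour, and the 2212 peaks with a neighbour within 1 kb are not drawn. The blue bars stand between 208 and 259 peaks and the grey bars between 171 and 232.

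At the edges of the definition, the member with the shortest distance was a peak of 834 bp on scaffold 337 (121348 to 122181), 1002 bp from its neighbour, and the longest distance below the range was 992 bp, for 2 peaks, the first of 911 bp on scaffold 22 (6264385 to 6265295). The longest distance of a member was 9988 bp, for a peak of 326 bp on scaffold 11 (7026312 to 7026637), and the next outside was 10004 bp, for 3 peaks, the first of 899 bp on scaffold 14 (2919863 to 2920761). The narrowest width among members was shared by 2 peaks, of which that on scaffold 8 (4824409 to 4824709) comes first, and was 1 bp above that of 2 excluded peaks of 300 bp, the first of them on scaffold 58 (301107 to 301406). The widest spanned 1997 bp on scaffold 3 (7085313 to 7087309), and the narrowest peak above the range 2002 bp on scaffold 49 (2492014 to 2494015). At every limit the nearest values inside and outside were thus close to each other, which does not show how many peaks lie on either side. At the lower limit of distance that number fell, from 2212 peaks within 1000 bp to 259 between 1 and 2 kb.

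The run with the most peaks lay on scaffold 70 from position 2130142 to 2155469. It held 5 peaks in 25328 bp, of which 15.4% was marked. Its first peak spanned 770 bp (2130142 to 2130911), and the second, 7673 bp further on, was the widest with 1261 bp (2138585 to 2139845). After a gap of 6319 bp followed a peak of 1021 bp (2146165 to 2147185), after 4240 bp a peak of 512 bp (2151426 to 2151937) and after 3195 bp the narrowest, of 337 bp (2155133 to 2155469). The gaps shortened along this run, and outside it the nearest peaks were 47073 bp before and 30834 bp after it.

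The 4 runs of 4 peaks differed in length and width. On scaffold 34 (575082 to 600798) the peaks were 601 to 1458 bp wide and 5912 to 9439 bp apart. On scaffold 57 (2103981 to 2126964) they were 482 to 1190 bp wide with gaps of 4611 to 9642 bp. The run on scaffold 18 (3563933 to 3577697) was the most heavily marked of these, 31.9% of 13765 bp, and placed peaks of 1603 and 1770 bp between outer peaks of 528 and 491 bp. On scaffold 1 (5086619 to 5099835) all peaks were narrow, from 304 to 601 bp, and a further peak of the list followed 8264 bp after the run. Over all 56 runs of 3 or more the median span was 15138 bp (lowest 5652 bp, highest 25717 bp) and the median marked share 16.9%, from 8.12% to 44.3%. Their peaks had a median width of 821 bp (770 to 970 bp).

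**Figure D2:**
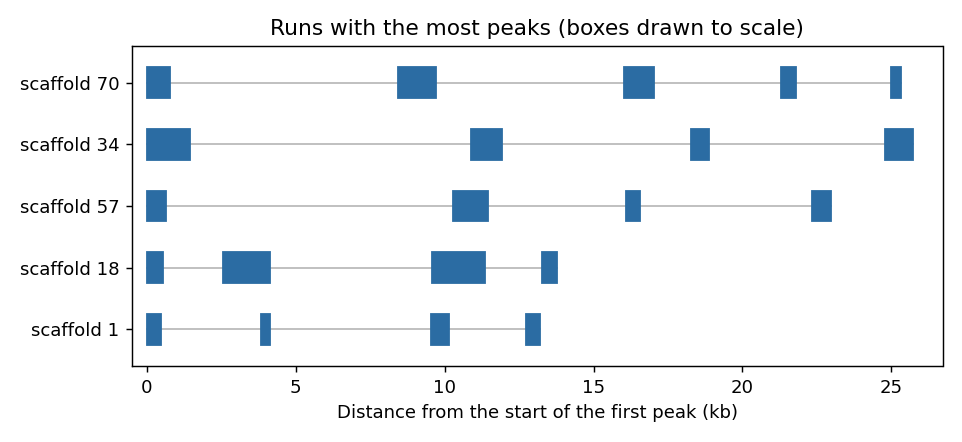
The 5 runs with the most peaks, each on its own line with the scaffold at the left; boxes are peaks drawn to scale against the distance from the start of the first peak (x axis, kb). The run on scaffold 70 holds 5 peaks in 25328 bp, the run on scaffold 18 holds 4 in 13765 bp, and wide and narrow boxes stand within the same run.

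The closely spaced peaks were of ordinary width, with an added share of narrow ones. Their median width was 960 bp (931 to 982 bp) and the middle 50% lay between 603 and 1271 bp, against a median of 940 bp for the whole list, which also holds the widths left out here. Among peaks of the same range of widths, the median was 1042 bp (1030 to 1054 bp) for the 7984 solitary peaks, whose nearest peak was over 10000 bp away, and 758 bp (734 to 794 bp) for the 2212 close peaks, with a neighbour within 1000 bp. The closely spaced peaks thus lay between both sets, and the 3 intervals do not overlap.

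The difference from the solitary peaks was at the narrow end. Widths over 300 and up to 600 bp made up 507 of the 2048 closely spaced peaks, or 24.8% (22.9% to 26.7%), compared with 14.9% (14.2% to 15.7%) of the solitary and 38.3% (36.3% to 40.3%) of the close peaks. Widths over 1000 and up to 1400 bp made up 29.8%, 36.8% and 20.8% of these sets in the same order. At the wide end, over 1400 bp, the shares of 16.1% (14.6% to 17.8%) and 17.3% (16.4% to 18.1%) for closely spaced and solitary peaks had overlapping intervals. The 100 bp bin with the most closely spaced peaks was the first, up to 400 bp, with 229 peaks (11.2%). No test was run between these sets because they are peaks of a single library and are not replicates, and the intervals treat peaks as independent.

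**Figure D3:**
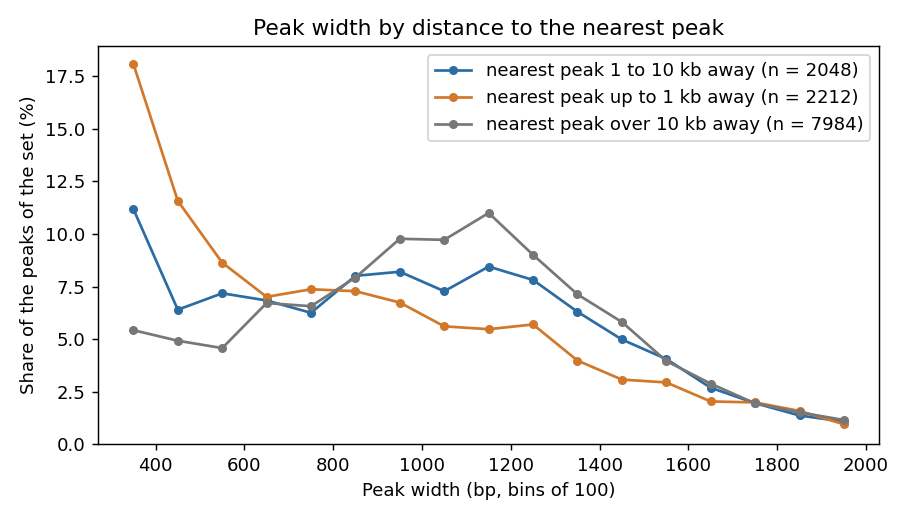
Share of the peaks of each set (y axis, %) by peak width (x axis, bins of 100 bp) for peaks with the nearest peak 1 to 10 kb away (blue, n = 2048), up to 1 kb away (orange, n = 2212) and over 10 kb away (grey, n = 7984). The blue line starts at 11.2% in the narrowest bin, between the other two, and meets the grey line among the widest peaks.

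Across bands of distance inside the range the median width lay between 913 and 981 bp. Between 1 and 2 kb the median width was 958 bp (841 to 1040 bp, 259 peaks), between 2 and 3 kb 937 bp (833 to 1020 bp, 248 peaks), between 3 and 5 kb 913 bp (861 to 963 bp, 445 peaks) and between 5 and 10 kb 981 bp (940 to 1023 bp, 1096 peaks). These intervals overlap. The medians of single 1 kb bins ranged more widely, from 833.5 bp, between 3 and 4 kb, to 1041 bp between 9 and 10 kb. Intervals were not computed for these bins, and a change of width with distance was not tested.

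The nearest neighbour of a closely spaced peak was a peak of the same kind in 1519 of 2048 cases (74.2%). The definition largely sets this share, since such a neighbour has a peak within 10000 bp and is of the same kind unless it is too narrow, too broad or has a closer peak. In the whole list 84.4% of the peaks had a width in the range. For 362 peaks (17.7%, 16.1% to 19.4%) it was a peak of at most 300 bp, with a median width of 228 bp at a median distance of 4549 bp. Such narrow peaks made up 11.6% of the whole list and were the nearest neighbour of 10.3% (9.62% to 10.96%) of the solitary and 23.5% (21.8% to 25.3%) of the close peaks. For 119 peaks (5.81%) the neighbour was over 300 and under 2000 bp wide and itself had another peak within 1000 bp. Neighbours of other widths were grouped by width alone, so any of them with a peak within 1000 bp are not in this count. Broad peaks of 2000 bp or more were the neighbour of 48 peaks, or 2.34% (1.77% to 3.09%), against 3.98% (3.58% to 4.43%) of the solitary peaks. The peaks beside a broad peak had a median width of 1095 bp and those beside a peak of at most 300 bp one of 973 bp. Beside another closely spaced peak the median was 940 bp. Intervals were not computed for these medians, so no difference is read from them.

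The next question was whether neighbours resemble each other in width. No likeness was seen by the measures used. In the 718 mutually nearest pairs, which hold 1436 of the peaks and count each once, the wider peak was 1.64 times as wide as the narrower at the median (1.59 to 1.71) and the median difference was 449 bp (424 to 474 bp). Only 138 pairs (19.2%) were within 1.2 times of each other, while 249 (34.7%) differed by more than 2 times. Across these pairs, which all come from the same library, Spearman's coefficient of both widths was -0.05 (Fisher interval -0.13 to 0.02) and Pearson's r was -0.06.

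The most equal pair, the only 1 with identical widths, lay on scaffold 15 (1077164 to 1078073 and 1083591 to 1084500), with 910 bp each and 5517 bp between them. The most unequal lay on scaffold 3, where the peak of 1997 bp (7085313 to 7087309) was followed after 4806 bp by a peak of 330 bp (7092116 to 7092445), a ratio of 6.05. Since the definition limits widths to values between 300 and 2000 bp, larger ratios could hardly occur.

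Neighbours at short distance were no more alike than those farther apart. The median ratio was 1.81 (1.57 to 2.17) in the 89 pairs 1 to 2 kb apart, 1.70 in the 84 pairs 2 to 3 kb apart, 1.64 in the 148 pairs 3 to 5 kb apart and 1.60 (1.53 to 1.69) in the 397 pairs 5 to 10 kb apart. Spearman's coefficient was -0.05, -0.20, -0.03 and -0.03 in these bands, and each interval includes 0, with -0.40 to 0.01 for the pairs 2 to 3 kb apart. Peaks of this kind 2, 3, 5, 10 and 20 places further along the scaffold, at median distances from 45357 to 744074 bp, gave median ratios between 1.52 and 1.62 and Spearman's coefficients between -0.08 and 0.04. The nearest pairs, with 1.64, were thus not closer in width than peaks at those distances.

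Grouped by width, both peaks of a pair fell into the same band (with limits at 300, 600, 1000, 1400 and 2000 bp) in 163 pairs, or 22.7% (19.8% to 25.9%). The product of the shares of each band gives 188.9 pairs, or 26.3%, just above this interval. Pairs of 2 peaks from the narrowest band numbered 35 against a product of 46.1, and pairs of 2 peaks from the widest band numbered 12 against 17.3. The largest excess over the product was for a peak of at most 600 bp beside one of over 600 and up to 1000 bp, with 126 pairs against 108.0.

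**Figure D4:**
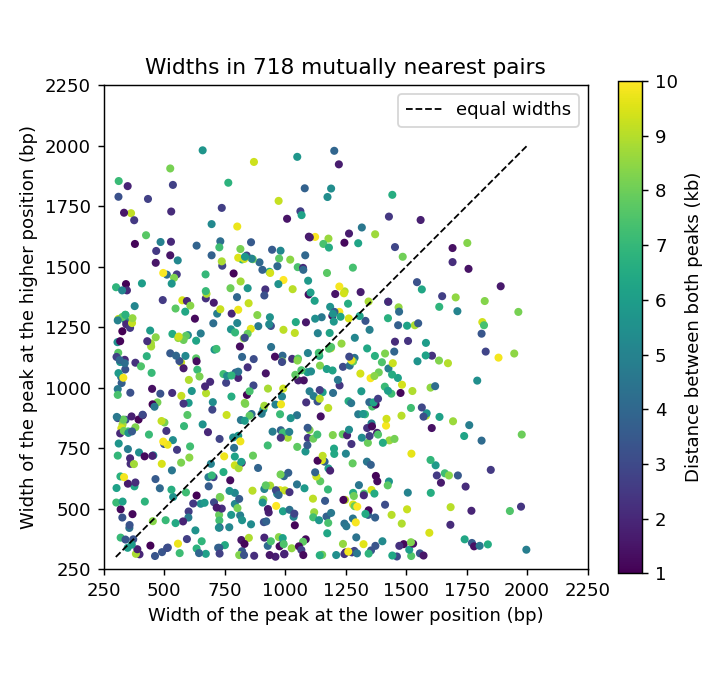
Widths of both peaks (x axis, the peak at the lower position; y axis, the peak at the higher position; bp) in the 718 mutually nearest pairs, coloured by the distance between them (kb); the dashed line marks equal widths. Points fill the square without gathering along the line, and Spearman's coefficient is -0.05.

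The closely spaced peaks were unevenly spread over the scaffolds. On the 190 scaffolds with at least 20 peaks, which held 1893 of them, their median share of a scaffold's peaks was 12.1% (10.8% to 13.3%), the middle 50% of scaffolds lay between 8.11% and 16.7%, and the range ran from 0 to 48.5%. There were 35 scaffolds that together held 50% of the closely spaced peaks, whereas 53 were needed for 50% of all peaks. Their share exceeded 30% on 10 scaffolds with 21 to 297 peaks each.

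The highest shares were on short scaffolds. Scaffold 231 had 16 of 33 peaks of this kind (48.5%, 32.5% to 64.8%), scaffold 257 had 11 of 25 (44.0%, 26.7% to 62.9%) and scaffold 131 had 27 of 65 (41.5%, 30.4% to 53.7%). The same 3 scaffolds had the most per Mb of the span from first to last peak, with 23.3, 18.9 and 15.9, against a median of 2.21. With so few peaks the intervals are wide, and they include the shares of about 35% on the longer scaffolds 15, 18 and 57 but not the 19.3% on scaffold 1. They treat peaks as independent, and the 3 scaffolds were named for their high shares, so this is a description only.

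The 4 scaffolds with the most closely spaced peaks held 318 of them, 15.5% of the total on 7.58% of all peaks. On scaffold 15 they were 103 of 297 peaks (34.7%, 29.5% to 40.3%), on scaffold 18 91 of 259 (35.1%, 29.6% to 41.1%), on scaffold 57 42 of 122 (34.4%, 26.6% to 43.2%) and on scaffold 1, the one with the most peaks among these, 82 of 425 (19.3%, 15.8% to 23.3%). Scaffolds 15, 18 and 57 were alike in share, and their intervals lie above the 75% quantile of the scaffolds. The intervals treat peaks as independent, and the scaffolds were named for their number of such peaks, so this is a description only. They also held 6, 6 and 3 of the 56 runs of 3 or more.

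The high share on scaffolds 15, 18 and 57 was not set by a single region. In windows of 1 Mb it ranged from 3 of 30 peaks to 16 of 30 peaks along scaffold 15, from 14.6% to 47.2% along scaffold 18 and from 22.6% to 44.0% along scaffold 57, and 19 of the 20 windows were above the 14.1% of the whole list. On scaffold 15 the window from 6 to 7 Mb had 3 such peaks of 30 and the following one 25 of 51. Widths on these scaffolds were ordinary, with medians of 969, 923 and 1069 bp, as was the distance to the nearest peak, with medians of 4349, 5375 and 5911 bp. Pairs on them had median width ratios of 1.56 (35 pairs), 1.54 (33 pairs) and 1.42 (17 pairs).

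Scaffolds 15, 18 and 57 also carried more listed peaks in all. They had 37.9, 35.0 and 33.0 peaks per Mb, where the median of the 190 scaffolds was 19.7. Across scaffolds, the share of closely spaced peaks had a Spearman's coefficient of 0.29 and a Pearson's r of 0.46 with the number of peaks per Mb, a description over 190 scaffolds of the same library in which both measures come from the same positions. High density did not always go with a high share. Among the 10 scaffolds with the most peaks per Mb the share ranged from 9.38% to 48.5%, and the densest, scaffold 265, named after its values were seen, had 57.5 peaks per Mb but only 3 closely spaced peaks of 32, while 37.5% of its peaks had a neighbour within 1000 bp. Conversely, scaffold 127, also named after its values were seen, had 11 of 31 peaks of this kind (35.5%) at 17.7 peaks per Mb.

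At the other end, 9 of the 190 scaffolds had none. The longest lists among them were those of scaffold 84, with 35 peaks and 13.2 per Mb, and scaffold 96, with 34 peaks and 14.5 per Mb. A count of 0 allows a share of up to 8.57% and 8.82% there by the rule of 3 peaks of the total, and the Wilson upper limits are 9.89% and 10.2%. These limits treat peaks as independent, although 70.1% of the closely spaced peaks lie in mutually nearest pairs, so they can be too low. Both scaffolds were named for their low share, so a shortage against the other scaffolds was not tested. Over the 9 scaffolds the density ranged from 12.16 to 24.96 peaks per Mb.

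**Figure D5:**
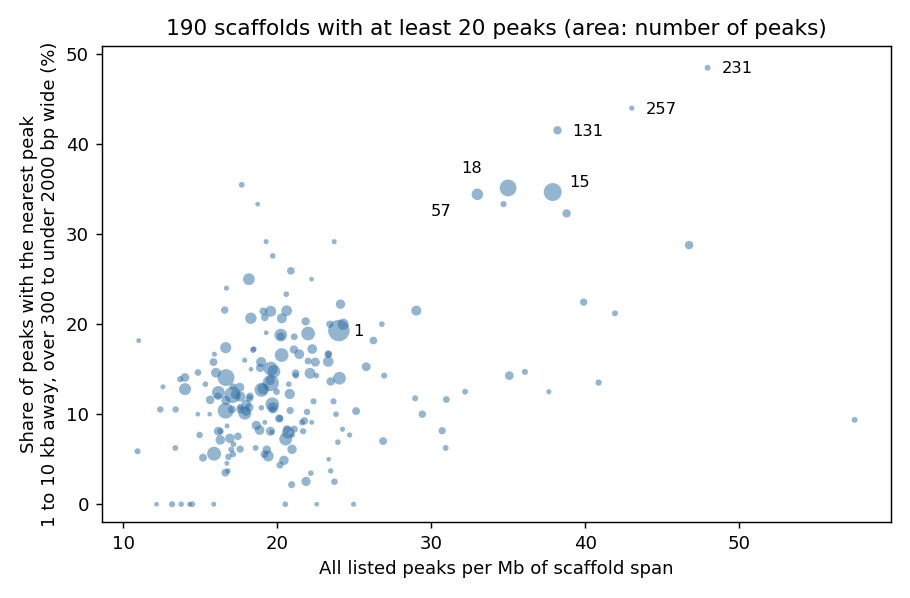
Share of closely spaced peaks among all peaks of a scaffold (y axis, %) against all listed peaks per Mb of its span (x axis) for the 190 scaffolds with at least 20 peaks; the area of a point is proportional to the number of peaks, and the named scaffolds are labelled by number. Scaffolds 15, 18 and 57 lie together near 35% and 33 to 38 peaks per Mb, apart from the main group around 12.1% and 19.7 per Mb. They are not alone there: the smaller, unlabelled scaffolds 134 (32.3%, 38.8 per Mb) and 189 (33.3%, 34.7 per Mb) lie close to them.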

How the data were processed

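H3K4me3 Mnase-ChIP-seq was analysed from 1 deposited peak list. Reads had been aligned by the authors with bowtie2 to the *S. mediterranea* assembly of the Rink lab (v4), and MACS2 had been used for peak calling. Versions, options, the use of the input as control and filters are not given in the sources used here. The deposited values are other than expression units, namely start and end positions in bp. The list held 14553 lines with 0 duplicates and 0 overlaps. Its narrowest peak was 175 bp and its shortest gap 176 bp.

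Width was end minus start, with starts read as counted from 0. A distance was the next peak's start minus the end of the preceding one. Medians have intervals from binomial order statistics, shares Wilson intervals and Spearman's coefficients a Fisher interval, all at 95% and for counting error only. The intervals treat peaks as independent. Both peaks of a mutually nearest pair are closely spaced together, so intervals of the share of closely spaced peaks can be too narrow. Python 3.11.15, numpy 2.4.6, pandas 2.3.3, scipy 1.17.1 and matplotlib 3.10.9 were used. Pairing and the joining of couples were tested on simulated data, which held no longer runs. The named runs, pairs, limits and scaffolds follow fixed rules of rank (most peaks, highest share, most per Mb, lowest share). The members and lists were chosen with earlier results of these data known.

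As alternatives, neighbours at most 200 or 500 bp apart were merged, or the analysis used 5000 bp as the upper or 2000 bp (excluded) as the lower limit of distance, no width limits, only scaffolds with at least 10 peaks, or distances from centre to centre. Leaving out the 4 scaffolds with the most members (1, 15, 18 and 57), and the share of widths over 300 and up to 600 bp under all settings, were added after seeing the data.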

Additional observations from a re-analysis of the deposited data

How the results depend on the processing

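Of 72 values under 8 alternatives, 48 stayed within the counting error of the main value (for the number of peaks, within 1.5 times) and 24 moved, most of them because the alternative changes the definition itself. The median share per scaffold uses only scaffolds with at least 20 peaks. The alternative of at least 10 peaks could therefore not change it, although it is counted among the 48. With 5000 bp as the upper limit, 952 peaks remained, with a median width of 930 bp, a median distance of 2855 bp, 3.15% flanked on both sides, 2.21% in runs of 3 or more, a median share per scaffold of 5.26% and 26.996% of widths up to 600 bp. With the lower limit raised to 2 kb, the median distance was 5893 bp, the share flanked on both sides 5.14% and the median share per scaffold 10.6%. Distances from centre to centre also took in peaks whose edges lie within 1000 bp and gave 3081 peaks, a median distance of 2963 bp, a Spearman's coefficient of -0.17 in the pairs, 7.95% flanked on both sides, 10.7% in runs of 3 or more and a median share per scaffold of 19.8%. Without width limits the median width was 849 bp, the median ratio in pairs 2.02, the share in runs of 3 or more 14.6%, the median share per scaffold 15.6% and the share of widths over 300 and up to 600 bp 20.2%, against 13.3% of the solitary peaks. Merging up to 500 bp gave 9.89% in runs of 3 or more and a median share per scaffold of 14.3%. Without scaffolds 1, 15, 18 and 57 the share in runs of 3 or more was 6.94%, and the number of peaks was 1730. The rule of 1.5 times applies to the number of peaks and not to their share of the list. That share was 12.9% without these scaffolds and 12.3% with the raised lower limit. It was 17.2% without width limits and 16.4% with merging up to 500 bp. All of these lay outside the main interval of 13.5% to 14.6%, although their numbers count as unmoved.

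Spearman's coefficient between neighbouring widths was between -0.17 and -0.05 under all 8 alternatives. Its interval excluded 0 without width limits (coefficient -0.10, -0.16 to -0.04) and with distances from centre to centre (-0.23 to -0.11), and included 0 under the other 6. The share of widths up to 600 bp was between 20.2% and 26.996%, above that of the solitary peaks under each of them. No paired analysis was possible because there is 1 library per condition and no result comes from a test between groups, and no replicate could be left out. Without a score in the list, no stricter threshold for peaks was tried. The unknown depth limits what an unlisted peak between neighbours can show.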
